A study of Gallus gallus with 9 samples.

Results

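PLPP1, the gene of a cell surface lipid phosphate phosphatase, fell to 40% of its starting intensity when chicken primordial germ cells (PGCs) were kept for 24 h without basic fibroblast growth factor (bFGF), and reached 139% of it 24 h after bFGF was given back. It belongs to a set of 6 genes, namely the phosphatases PLPP1, PLPP2 and PLPP3, the lysophosphatidic acid receptors LPAR1 and LPAR6 and the sphingosine-1-phosphate receptor S1PR1. These genes were chosen on the basis of their changes on these same arrays, so their values are given as a description with no p-value. They are 6 of the 13009 genes named on the array, and every probe set whose only annotated symbol is one of them was taken, 11 probe sets in all. Here 8 of the 11, for 4 of the 6 genes, passed the filter on dim probe sets, while PLPP2 and LPAR1 did not. A probe set passed when its log2 intensity, averaged over the 9 arrays, reached the median of the 38439 probe sets left once array controls were set aside.

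The cells came from whole blood of Korean Oge (KO) embryos at embryonic day 2.5 and were grown without feeder cells. RAW cells (0 h) were in medium with 10 ng/ml human bFGF, -bFGF cells were taken after 24 h in medium free of it, and +bFGF cells (48 h) were collected 24 h after it was replaced. Each group has 3 Affymetrix Chicken Genome arrays, and all groups were in medium with 7.5% fetal bovine serum and 2.5% chicken serum. Withdrawal is -bFGF against RAW, replacement is +bFGF against -bFGF, and the net change is +bFGF against RAW. Withdrawal and replacement share the -bFGF arrays, the groups also differ in time in culture, and the arrays stand for repeats whose cultures are not described, so the spread between them may be technical. In these bulk samples a lower share of cells expressing a gene and less RNA per cell cannot be told apart.

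Lysophosphatidic acid (LPA) and sphingosine-1-phosphate (S1P) are signalling lipids of blood and serum that act through G protein-coupled receptors at the cell surface. The lipid phosphate phosphatases are membrane enzymes with an active site that faces the outside of the cell, where they remove the phosphate from LPA, S1P, phosphatidate and ceramide-1-phosphate, and so end the signal of the first pair of lipids. In Drosophila, phosphatases of this family, the wunen genes, are needed for the migration and survival of germ cells. LPA receptors and S1P receptors couple to the inhibitory, Gq and G12/13 classes of G proteins, and the last of these act on the small GTPase RHOA.

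The PLPP1 transcript was also a target of the study's quantitative PCR, under its older symbol PPAP2A. The primer pair is shown because it marks the gene on which the main result rests. The first primer has 20 bases with 55% G and C, and the second 20 bases with 60%.
PPAP2A first primer: ccagcctgactggacacaaa
PPAP2A second primer: acaagtctcgcccagtctcc
The primers are written 5′ to 3′, and their PCR values are not used here.

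All 9 arrays had a trimmed mean of 500.1 and medians between 71.6 and 82.6. Background was read from 683 probe sets for viral and other foreign sequences, with a 95th percentile of 29.4 on the lowest array and 39.4 on the highest. For the actin control the 3′ signal over the 5′ signal, in log2, ran from 0.622 to 0.733 in RAW, 0.702 to 0.779 in -bFGF and 0.334 to 0.587 in +bFGF, so that on replacement it moved without overlap of the arrays. The same measure of the GAPDH control ran from -0.069 to -0.054, -0.177 to -0.143 and -0.163 to -0.078, without overlap between RAW and -bFGF. Both controls also differed between RAW and +bFGF without overlap. A sign of RNA quality thus moved on withdrawal, on replacement and net, and its part in the changes below was not tested. None of the 9 PGC markers on the array was under background on all arrays, and their summed intensity ran from 92965 to 97087 in RAW, 80132 to 91331 in -bFGF and 87029 to 93034 in +bFGF, lower on withdrawal without overlap. DAZL (means of 39391, 32806 and 35273) and DDX4 (22161, 19879 and 21056, not called) made up most of that fall. KIT, DND1 and PIWIL1 had higher means in -bFGF than in RAW, without a call. Of the 8 PGC markers tested, 3 fell on withdrawal and none rose, where 5.99% of 9125 genes, each read by its brightest probe set, fell and 6.83% rose. They were the RNA-binding protein genes LIN28A by 0.98 (limma adjusted p = 0.000382) and DAZL by 0.27 (adjusted p = 0.0342) and the integrin gene ITGB1 by 0.23 (adjusted p = 0.0242). A dimmer ITGB1 probe set changed by -0.13 without a call (limma adjusted p = 0.223). On replacement LIN28A rose by 0.80 (adjusted p = 0.00229) and the integrin gene ITGA6 fell by 0.20 (adjusted p = 0.0205), where 4.02% of these genes rose and 4.21% fell. ITGA6 also fell by 0.22 net (limma adjusted p = 0.0216), where 1.85% fell. Its dimmer probe set fell by 0.31 on replacement and 0.28 net (limma adjusted p = 0.00631 and 0.0235). Among these calls the 2 of LIN28A held whichever array was left out. The DAZL call was lost without any 1 RAW array or -bFGF replicate 2 or 3, and that of ITGB1 without replicate 1 or 2 of RAW or -bFGF. On its brightest probe set ITGA6 lost the replacement call without replicate 1 or 2 of -bFGF or replicate 2 or 3 of +bFGF. Its net call was lost there without any 1 RAW array or +bFGF replicate 2 or 3. Changes below are on the log2 scale, later group minus earlier, with the standard error (SE) of a limma fit to all 9 arrays. A probe set is called at a Benjamini-Hochberg adjusted p under 0.05 over the 19220 probe sets tested in a comparison.

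PLPP1 was bright in every group. Its first probe set read 6304, 5814 and 5260 on the RAW arrays, 2237, 2337 and 2382 on the -bFGF arrays and 8441, 7789 and 7882 on the +bFGF arrays. No -bFGF array came near the others, and every +bFGF array lay above every RAW array. The means were 5792 ± 522, 2318 ± 74.2 and 8037 ± 353 (SD, n = 3). The change was -1.32 on withdrawal (SE 0.0666), 1.79 on replacement and 0.48 net, with the same SE.
The second PLPP1 probe set gave the same picture. It read 5819, 5898 and 5339 in RAW, 2089, 2214 and 2244 in -bFGF and 8313, 7658 and 7715 in +bFGF. Again no group overlapped another, with means of 5686 ± 302, 2182 ± 81.9 and 7895 ± 363. The changes were -1.38 (SE 0.0588), 1.85 and 0.47, which puts the -bFGF mean at 38.4% of RAW and the +bFGF mean at 362% of -bFGF. On each array the log2 values of both probe sets differed by between -0.022 and 0.116. They may hold overlapping stretches of 1 transcript and are not counted as separate evidence.

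**Figure D1:**
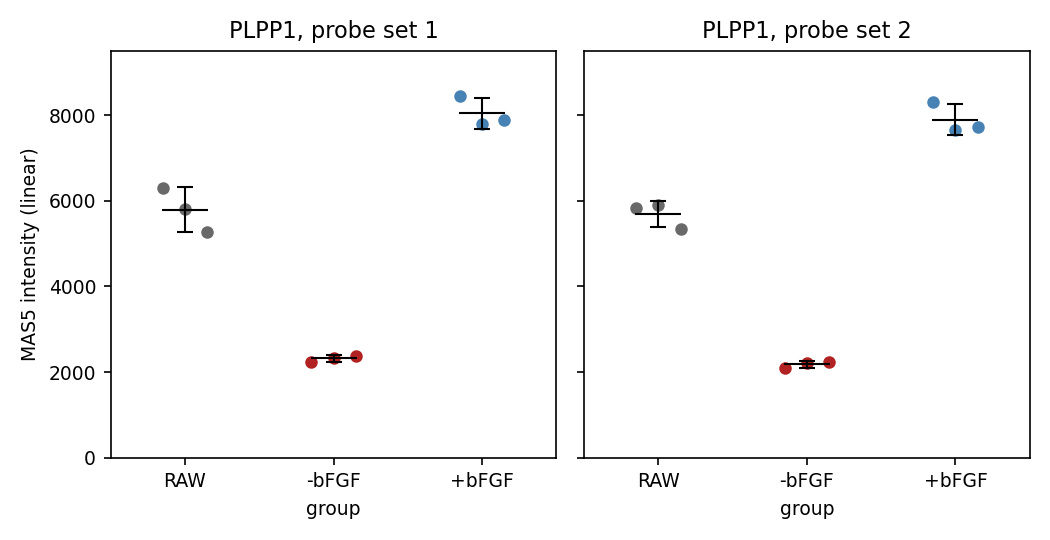
MAS5 intensity (linear axis from 0) of the PLPP1 probe sets on each array of RAW, -bFGF and +bFGF. Points are arrays, and bars are the mean ± SD of 3 arrays. On both probe sets the -bFGF arrays lie between 2089 and 2382, the RAW arrays between 5260 and 6304 and the +bFGF arrays between 7658 and 8441.

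By size of change, without regard to sign, the PLPP1 probe sets ranked 69 and 58 of 19220 on withdrawal, 26 and 23 on replacement, and 856 and 864 for the net change. The withdrawal and replacement changes stand near the head of the list, while the net rise is of moderate size. PLPP1 was chosen for its changes on these same arrays, so its ranks are only a description. Both probe sets were called in all 3 comparisons under each of the 20 settings tried, and over those settings the first changed by -1.39 to -1.25 on withdrawal, 1.76 to 1.83 on replacement and 0.41 to 0.54 net. Here and below the 20 include the main fit itself and the same fit at an adjusted p under 0.1, neither of which can lose a call. PLPP1 lies next to SKIV2L2, with which it overlaps, and near DHX29, SLC38A9 and DDX4 in RefSeq's gene table for GRCg7b. SKIV2L2 went the other way on withdrawal, by 0.20 (SE 0.0521, limma adjusted p = 0.0269). That call was lost without any 1 of 5 arrays, RAW replicate 2 or 3 or any -bFGF replicate. A second tested probe set of SKIV2L2 changed by 0.17 on withdrawal without a call (limma adjusted p = 0.0895). DHX29 changed by 0.10 (adjusted p = 0.591), SLC38A9 by -0.11 (adjusted p = 0.563) and DDX4 by -0.16 (adjusted p = 0.103) in the same fit, so no tested neighbour was called fallen with PLPP1.

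PLPP3, a second broadly expressed enzyme of the family, is known in the mouse for its part in vessel and axis formation. Its first probe set read 411, 391 and 445 in RAW, 298, 348 and 287 in -bFGF and 321, 309 and 392 in +bFGF. Each -bFGF array lay below each RAW array, and the +bFGF arrays overlapped both groups. The means were 416 ± 27.3, 311 ± 32.6 and 341 ± 45.1 (SD, n = 3). Withdrawal changed it by -0.42 (SE 0.122), a call, replacement by 0.13, and the net change was -0.29. The name of this probe set marks it as one that may also match other transcripts.
The call rested on individual arrays. It held in 10 of 20 settings, and was lost without any 1 of the RAW arrays or without -bFGF replicate 1 or 3, with no filter, with the stricter filter, without the intensity trend, with the replicate number as a block and under the study's criteria.
The second PLPP3 probe set read 262, 201 and 256, then 176, 224 and 215, then 270, 258 and 267, and changed by -0.22 (SE 0.142) on withdrawal and 0.38 on replacement. Here RAW and -bFGF overlapped, and all +bFGF arrays lay above -bFGF. The third read 115, 143 and 129, then 109, 107 and 99.7, then 132, 124 and 121, with changes of -0.29 (SE 0.168) and 0.26. Its -bFGF arrays lay below all others. Neither was called in any comparison. The 3 probe sets therefore had the same order of signs, between -0.42 and -0.22 on withdrawal and between 0.13 and 0.38 on replacement, and differed in sign for the net change, between -0.29 and 0.15.

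PLPP2, the third phosphatase, was dim. It read 57.9, 51.5 and 108 in RAW, 57.1, 75 and 37.5 in -bFGF and 44.6, 74.2 and 37.4 in +bFGF. All 9 values were above background, the groups overlapped, and the 108 of RAW replicate 3 was the highest. Since it did not pass the filter it was not tested. In a fit without the filter its changes were -0.33 on withdrawal, -0.12 on replacement and -0.46 net, each with an SE of 0.413, as large as the PLPP3 change itself, so a change of that size was not detectable at this signal.

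LPAR6, a receptor for LPA that couples to G12/13 and in humans is known for its role in hair growth, was brightest with bFGF back. The first probe set read 489, 423 and 428 in RAW, 474, 481 and 436 in -bFGF and 543, 553 and 593 in +bFGF. RAW and -bFGF overlapped, and each +bFGF array lay above all 6 others. The means were 447 ± 36.8, 463 ± 24.3 and 563 ± 26.4 (SD, n = 3), and the changes were 0.05 on withdrawal (SE 0.0935), 0.28 on replacement and 0.34 net. None was called. With an adjusted p threshold of 0.1 in place of 0.05 the replacement and net changes were called, and the net change was also called with the stricter filter.
The second LPAR6 probe set, which may match other transcripts too, read 127, 133 and 105, then 117, 105 and 84.1, then 165, 124 and 129. Its +bFGF arrays lay above the -bFGF arrays and overlapped RAW. The changes were -0.26 (SE 0.197), 0.45 and 0.20, and none was called. On withdrawal the signs of the LPAR6 probe sets differed. LPAR6 lies within RB1, the retinoblastoma gene, in the GRCg7b gene table. RB1 averaged 388 ± 83 in RAW, 371 ± 15.1 in -bFGF and 354 ± 34.6 in +bFGF, with no call (limma adjusted p = 0.887, 0.83 and 0.728 for the 3 comparisons).

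S1PR1, the S1P receptor best known for guiding lymphocytes out of lymphoid tissue and for its part in vessels, did not follow PLPP1. It read 117, 149 and 175 in RAW, 147, 162 and 124 in -bFGF and 67.2, 108 and 76.1 in +bFGF. The first pair of groups overlapped fully, and every +bFGF array lay below every other array. The means were 147 ± 29.3, 144 ± 19.1 and 83.7 ± 21.5 (SD, n = 3). The change was -0.01 on withdrawal (SE 0.223), -0.81 on replacement, a call, and -0.82 net, not a call. By size it ranked 18342 of 19220 on withdrawal, 336 on replacement and 91 for the net change.
The S1PR1 replacement call held in 7 of 20 settings. Among the arrays it outlasted only the loss of RAW replicate 1 or 3 or +bFGF replicate 2, and it was lost without any 1 of the other 6. Its change kept its sign in each setting, between -1.01 and -0.55, and the net change was called at an adjusted p under 0.1 and under the study's criteria. S1PR1 has 1 probe set, so no second reading of the gene was at hand.

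LPAR1, the most widely expressed LPA receptor in mammals, was near or at background. Its first probe set read 48.7, 27.2 and 33.2 in RAW, 27.8, 39 and 56.9 in -bFGF and 50.9, 38.3 and 43.8 in +bFGF. It was under background on 2 RAW arrays and 1 -bFGF array, and on 0 of the +bFGF arrays. The second read 30.9, 13.1 and 5.6, then 21.8, 41 and 13.2, then 38, 32.6 and 2.81. It was under background on all arrays of RAW and +bFGF and on 2 of -bFGF. Neither was tested, and no change of LPAR1 can be read from these values.

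**Figure D2:**
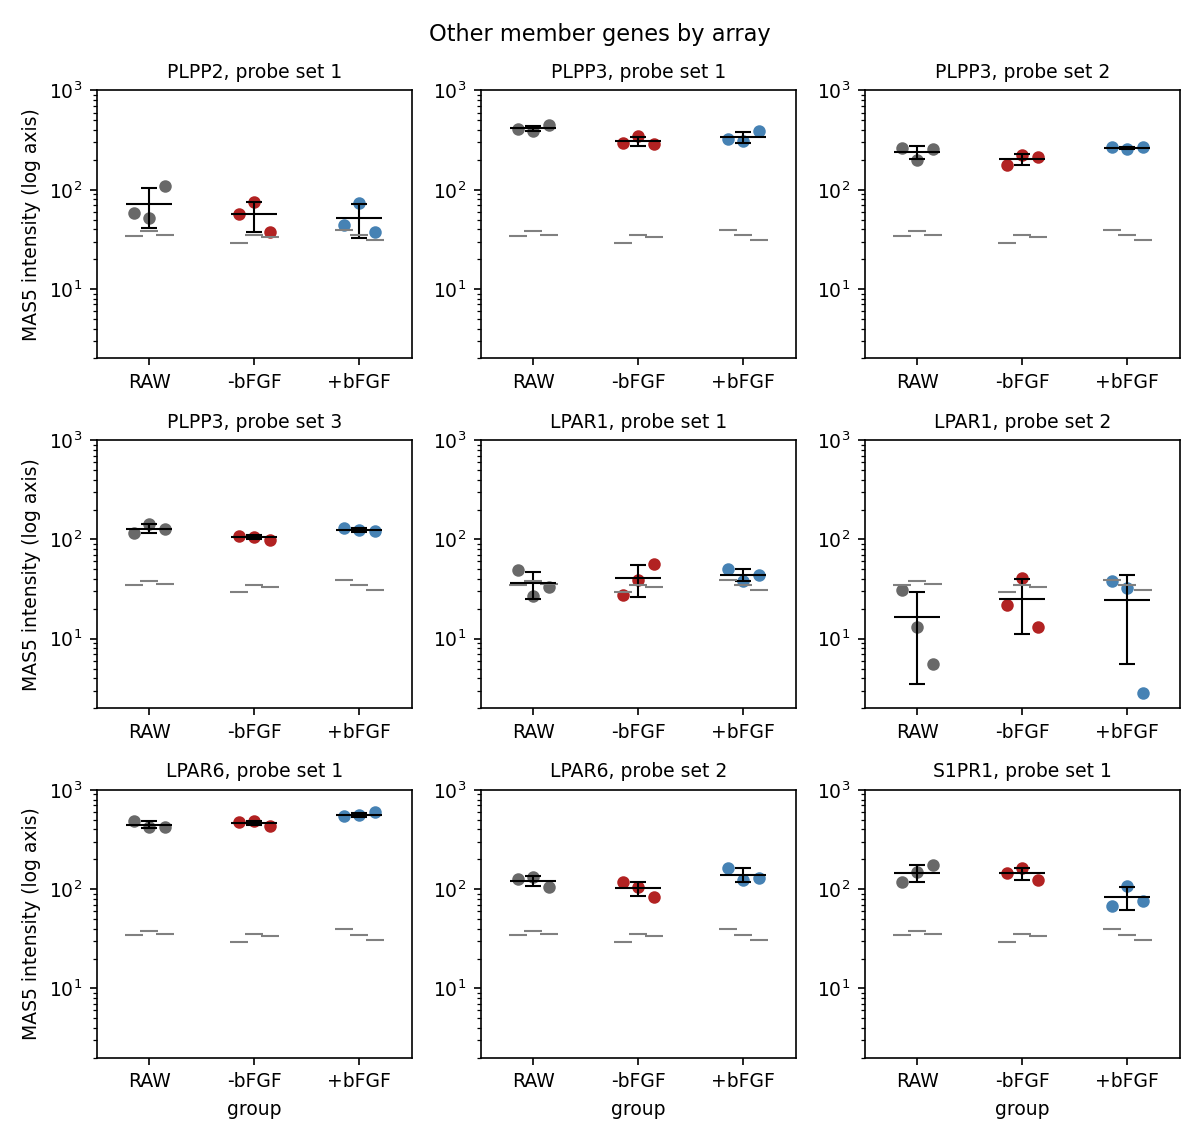
MAS5 intensity (log axis) of the 9 probe sets of PLPP2, PLPP3, LPAR1, LPAR6 and S1PR1 on each array. Points are arrays, black bars the mean ± SD of 3 arrays, and grey dashes the background level of the same array (29.4 to 39.4). LPAR1 lies at the dashes, S1PR1 is lowest in +bFGF, and the first LPAR6 probe set is highest there.

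Of the 8 member probe sets tested, 3 were called fallen on withdrawal and none risen, beside 5.33% of all tested probe sets called fallen and 5.4% called risen. These were both probe sets of PLPP1 and 1 of PLPP3. On replacement 2 were called risen, those of PLPP1, and 1 fallen, that of S1PR1, where 3.37% of all were called risen and 3.42% fallen. For the net change 2 were called risen, again PLPP1, and none fallen, where the shares were 1.14% risen and 1.74% fallen. Because the genes were chosen for these changes, nothing is read from the counts.

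**Figure D3:**
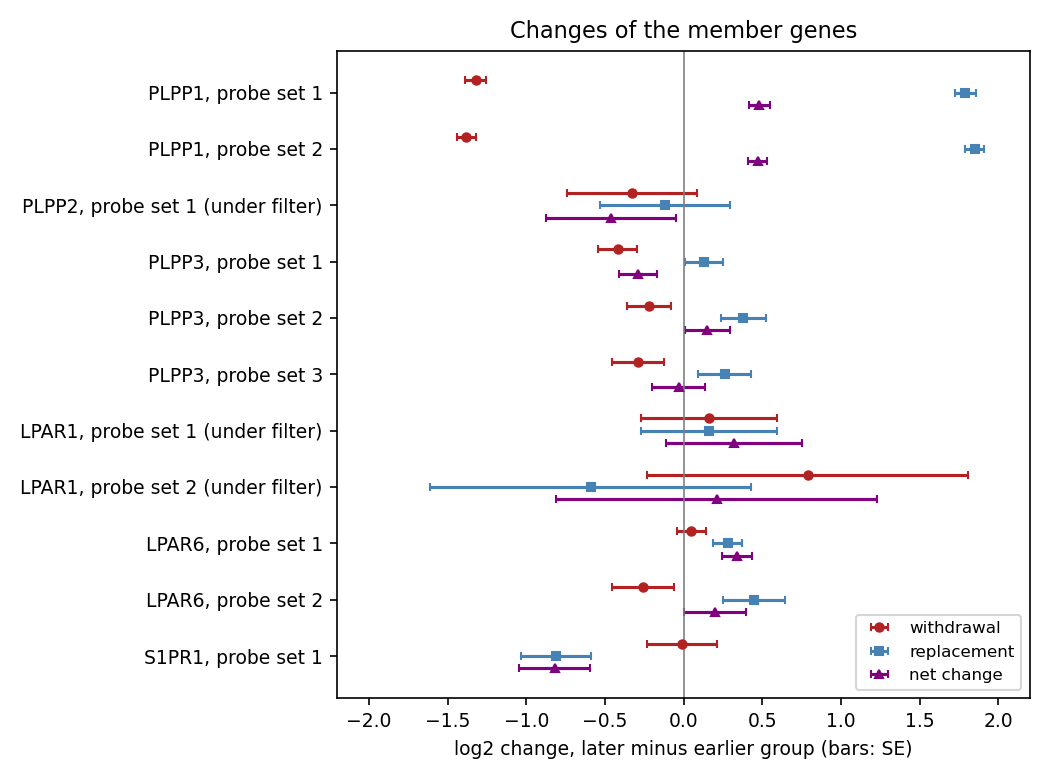
Log2 change (later minus earlier group) of each member probe set on withdrawal (circles), replacement (squares) and net (triangles). Bars are the SE of the limma fit, taken from a fit without the filter where a probe set lay under it. PLPP1 stands apart at -1.38 to -1.32 and 1.79 to 1.85, and S1PR1 lies at -0.81 on replacement.

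Markers of other cell types were set beside these values. S1PR1 is strong in endothelial cells, and of the 10 endothelial markers on the array TEK and ERG were under background on all 9 arrays. CDH5 and TIE1 were under it on 8 of 9, FLI1 on 6, KDR on 3 and ENG on 2, while EGFL7, PECAM1 and VWF were not under it on any array. The summed intensity of the list ran from 464 to 539 in RAW, 377 to 390 in -bFGF and 453 to 563 in +bFGF. Like PLPP1 it fell on withdrawal and rose on replacement, the latter the opposite of S1PR1. Unlike PLPP1 it overlapped between RAW and +bFGF, and EGFL7 made up most of its fall. Of the 2 tested markers, the secreted factor gene EGFL7 had means of 188, 87.2 and 148 and was called in both steps (-1.12, limma adjusted p = 0.00279, then 0.77, adjusted p = 0.0343), the second call being lost without any 1 of 5 arrays (RAW replicate 1, -bFGF replicate 1 or 3, +bFGF replicate 1 or 2). The adhesion gene PECAM1, with means of 99.2, 102 and 92.8, was not called. The part of endothelial cells in the S1PR1 values was not tested. Fibroblast and mesenchyme markers, 11 on the array, summed to between 8176 and 9219 in RAW, 6148 and 6389 in -bFGF and 6920 and 8084 in +bFGF, the same order of withdrawal and replacement as PLPP1 and PLPP3. Every +bFGF sum lay below every RAW sum, where every +bFGF array of PLPP1 lay above every RAW array. TWIST1, LUM and DCN were under background on all arrays. Of 7 tested markers 4 fell on withdrawal and 1 rose on replacement, beside 5.99% fallen and 4.02% risen of 9125 genes, and of the 4 the calls of COL1A1 and FN1 were both lost when a -bFGF array, whichever it was, or replicate 1 or 2 of RAW was left out. The collagen gene COL1A2 made up most of the shift, with means of 2385, 263 and 1865 and changes of -3.18 (limma adjusted p = 2.82e-10) and 2.82 (adjusted p = 5.39e-10). The brightest marker, the collagen gene COL3A1, had means of 4235, 4418 and 4000 and was not called, and the fibronectin gene FN1, at 956, 720 and 586, was lower again in +bFGF. The part of such cells in the PLPP1 and PLPP3 values was not tested. The 5 erythroid markers on the array summed to 212 to 312, 135 to 224 and 173 to 285 in the 3 groups, and the 7 thrombocyte and leukocyte markers to 389 to 476, 334 to 414 and 366 to 448, each with overlap between -bFGF and both other groups.

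The rest of the pathway was followed through 7 gene lists with 108 genes, none of them a member, of which 97 were on the array and 66 were tested, each by its brightest probe set. On withdrawal 8 of the 66 fell (12.1%) and 5 rose (7.58%), where 5.99% and 6.83% of 9125 genes measured in the same way did. On replacement 3 fell (4.55%) and 5 rose (7.58%), against 4.21% and 4.02%, and for the net change 2 fell (3.03%) and 1 rose (1.52%), against 1.85% and 1.62%, near the share of all genes. The median change of the 66 was -0.04, -0.03 and -0.03 in the 3 comparisons, close to the 0.02, -0.02 and -0.01 of all tested probe sets. Most of the pathway was therefore not called, and no test of the lists was made. The 13 genes called on withdrawal became 8 without RAW replicate 2 or -bFGF replicate 2, the 8 called on replacement became 5 without -bFGF replicate 2 or +bFGF replicate 1, and no more than 1 gene was called for the net change when any 1 of the 9 arrays was left out.

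Among the other receptors, 10 of 12 listed genes were on the array and 3 were tested. S1PR3, a receptor that couples to all 3 classes of G protein named above, took the course of PLPP1. It read 346, 358 and 355 in RAW, 227, 255 and 245 in -bFGF and 440, 450 and 446 in +bFGF, with no overlap between groups. It fell by 0.54 on withdrawal (SE 0.0976, limma adjusted p = 0.00289) and rose by 0.88 on replacement (adjusted p = 6.98e-05), and both calls held whichever array was left out. They ended with the stricter filter, since S1PR3 then was not tested. On replacement S1PR3 rose while S1PR1 was at -0.81, and the difference between these changes was not tested. LPAR2, another LPA receptor, averaged 665 ± 40.4 in RAW, 543 ± 18.5 in -bFGF and 527 ± 20.3 in +bFGF. It fell by 0.29 on withdrawal (SE 0.0833, limma adjusted p = 0.0403) and by 0.33 net (adjusted p = 0.0494). The net call was lost without any 1 of the 9 arrays, and the withdrawal call without RAW replicate 1 or 2, any -bFGF replicate or +bFGF replicate 2 (adjusted p up to 0.138). Its second tested probe set changed by -0.34 and -0.23 without a call. LPAR4, a relative of LPAR6, was not called. LPAR3, LPAR5 and S1PR4 did not pass the filter.

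In the phosphatase superfamily 5 of 10 genes on the array were tested, and none fell on withdrawal, where 5.99% of 9125 genes did. Nothing is read from so small a count. PLPP4, a phosphatidate phosphatase of the same family, moved against PLPP1, averaging 130 ± 10.8 in RAW, 194 ± 19.6 in -bFGF and 116 ± 25.3 in +bFGF. It fell by 0.76 on replacement (SE 0.189, limma adjusted p = 0.0271), and its withdrawal change of 0.58 was not called (adjusted p = 0.0691). That replacement call was lost without -bFGF replicate 2 or 3 or +bFGF replicate 1 (adjusted p up to 0.111) and with no filter or the stricter one. A dimmer PLPP4 probe set was called in both directions, with a rise of 1.02 (SE 0.184, adjusted p = 0.00293) and a fall of 0.96 (adjusted p = 0.00556). SGMS2, which makes sphingomyelin from ceramide, rose on withdrawal from 362 ± 8.12 to 510 ± 15.4, by 0.49 (SE 0.0946, adjusted p = 0.00445). PLPP5 (means of 1092, 1259 and 1264), PLPPR5 and SGMS1 were not called, and the S1P phosphatases SGPP1 and SGPP2 did not pass the filter.

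In the synthesis of LPA and phosphatidate 3 of 16 tested genes were called on withdrawal, 1 fallen and 2 risen. Of 9125 genes 5.99% fell and 6.83% rose, so nothing is read from the count. AGK, a lipid kinase of mitochondria that makes LPA from monoacylglycerol, averaged 3850 ± 190 in RAW, 2788 ± 15.9 in -bFGF and 4019 ± 272 in +bFGF. It fell by 0.46 (SE 0.0615, limma adjusted p = 0.000277) and rose by 0.53 on replacement (adjusted p = 0.000113), and both of its other probe sets were called in the same directions. GPAM, which makes LPA from glycerol-3-phosphate in mitochondria, and AGPAT4, which turns LPA into phosphatidate, rose on withdrawal by 0.32 (SE 0.0638, adjusted p = 0.00583) and 0.31 (SE 0.0613, adjusted p = 0.00565). GPAM fell by 0.27 on replacement (adjusted p = 0.0218), a call lost without -bFGF replicate 2 or 3 or +bFGF replicate 1 (adjusted p up to 0.0851). ENPP2, autotaxin, the enzyme that makes LPA outside the cell, did not pass the filter, with means of 49.2, 74.6 and 37.1. None of the 5 genes that use phosphatidate, the lipins LPIN1 and LPIN2 and the CDP-diacylglycerol enzymes CDS1, CDS2 and TAMM41, was called in any comparison.

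In S1P and ceramide metabolism 14 genes were tested. CERS5, a ceramide synthase, went from 2845 ± 25.3 to 2262 ± 122 and back to 2984 ± 108, a fall of 0.33 (SE 0.0579, limma adjusted p = 0.00237) and a rise of 0.40 (adjusted p = 0.000671). The acid ceramidase gene ASAH1 rose by 0.23 on withdrawal (SE 0.0612, adjusted p = 0.0288) and by 0.26 net (adjusted p = 0.0414), and ACER3, an alkaline ceramidase, fell by 0.26 on withdrawal (SE 0.0706, adjusted p = 0.0345). SGPL1, the lyase that destroys S1P, fell by 0.35 net (SE 0.0823, adjusted p = 0.0405), from 1920 ± 103 to 1512 ± 127. Each of these last 4 calls was lost when 1 of several arrays was left out: 4 arrays for the withdrawal calls of ASAH1 and ACER3 (RAW replicate 2 and -bFGF replicates 1 and 2 for both, with RAW replicate 3 for ASAH1 and RAW replicate 1 for ACER3), 8 for the net call of ASAH1 (every array but +bFGF replicate 1), and 6 for SGPL1 (the RAW replicates, -bFGF replicate 2 and +bFGF replicates 1 and 3). Without them the adjusted p reached 0.126, 0.124, 0.162 and 0.152 in that order. The sphingosine kinase gene SPHK1, with means of 169, 140 and 148, was not called.

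Downstream of the receptors all 16 listed genes of G proteins and small GTPase signalling were tested. RHOB, a small GTPase of endosomes, read 945 ± 79.8 in RAW, 541 ± 51.9 in -bFGF and 1160 ± 60 in +bFGF. It fell by 0.81 (SE 0.0911, limma adjusted p = 7.05e-05) and rose by 1.10 (adjusted p = 3.67e-06). ARHGEF1, the exchange factor that carries the signal of G12/13 to RHOA, went the opposite way, with a rise of 0.35 (SE 0.0896, adjusted p = 0.0253) and a fall of 0.59 (adjusted p = 0.000948). The rise was lost without RAW replicate 2 or 3 or -bFGF replicate 1 or 2 (adjusted p up to 0.107). A dimmer ARHGEF1 probe set changed by 0.38 on withdrawal without a call (adjusted p = 0.0661). On replacement it changed by -0.62, a call (adjusted p = 0.00769). Another tested ARHGEF1 probe set changed by -0.06 and -0.17, neither a call (adjusted p = 0.87 and 0.68). The inhibitory G protein genes GNAI1 and GNAI3 fell on withdrawal by 0.32 (SE 0.0567, adjusted p = 0.00288) and 0.23 (SE 0.0578, adjusted p = 0.0212), and GNAI1 rose by 0.24 on replacement (adjusted p = 0.0186). The replacement call of GNAI1 was lost without replicate 1 or 2 of -bFGF or +bFGF (adjusted p up to 0.0793) and the withdrawal call of GNAI3 without RAW replicate 1 or 2 or -bFGF replicate 2 or 3 (adjusted p up to 0.0856). The other GNAI1 probe sets changed by 0.12 and 0.05 on withdrawal, without a call. RHOA, GNA12, GNA13, ROCK1 and ROCK2 were not called. Of 12 listed targets of the factors YAP and SRF, which RHOA signalling activates, 7 were tested and none was called in any comparison. On withdrawal 5.99% of 9125 genes fell and 6.83% rose, so nothing is read from the lack of calls among 7. ANKRD1, EGR1, FOS, TAGLN and ACTA2 did not pass the filter. Of these, EGR1 was higher on every +bFGF array than on any other array, with means of 37.9, 28.9 and 74.4, and was not tested.

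**Figure D4:**
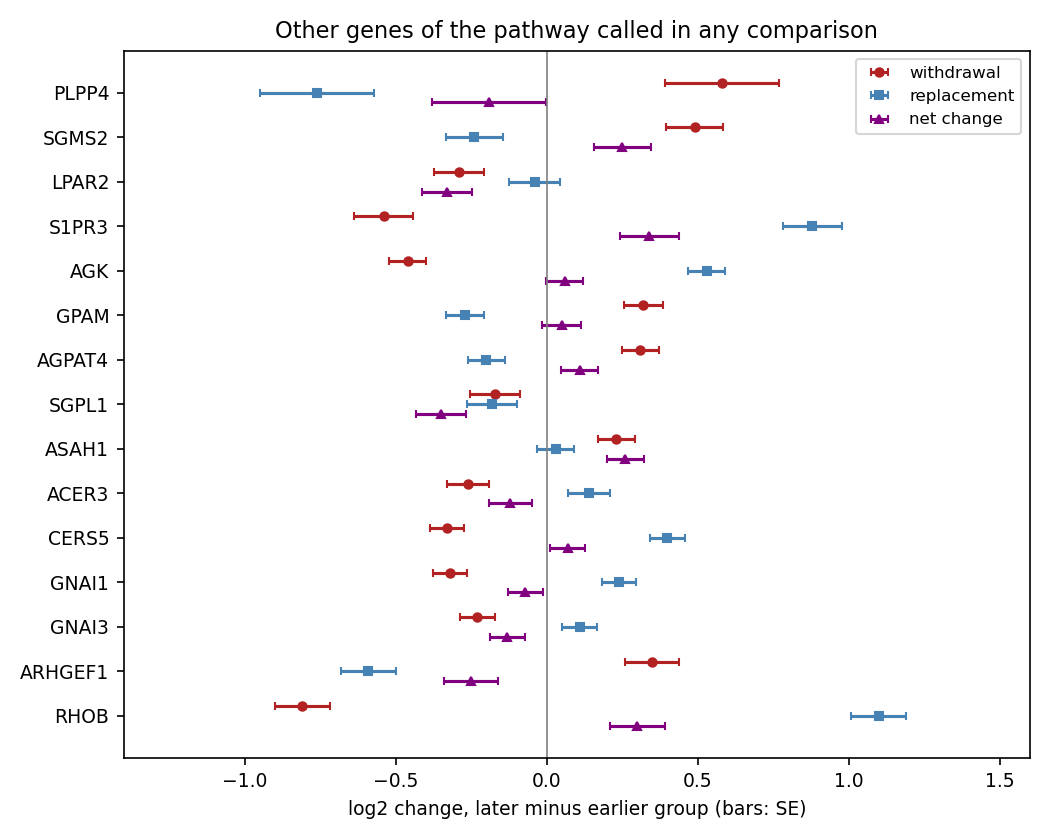
Log2 change (later minus earlier group) of the 15 genes of the pathway lists that were called in at least 1 comparison, on withdrawal (circles), replacement (squares) and net (triangles). Bars are the SE of the limma fit. S1PR3, AGK, CERS5 and RHOB lie left of 0 on withdrawal and right of it on replacement, and PLPP4, GPAM and ARHGEF1 the other way round.

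The genes with a profile most like that of PLPP1 were found by the root mean square difference of log2 values over the 9 arrays, after each probe set was centred on its own mean. They were TMEFF2, a membrane protein with follistatin-like domains (0.12), SPRY2, a feedback inhibitor of receptor tyrosine kinase signalling (0.15), RFTN2, a lipid raft protein (0.162), PKDCCA (0.189) and the kinase gene SGK1 (0.192). Their changes were -1.36, -1.55, -1.63, -1.21 and -1.41 on withdrawal and 1.64, 2.07, 1.89, 1.39 and 2.15 on replacement, around the -1.32 and 1.79 of PLPP1. SPRY2 and SGK1 were also above RAW in +bFGF, by 0.51 and 0.74, as PLPP1 was by 0.48, and TMEFF2, RFTN2 and PKDCCA had net changes of 0.28, 0.25 and 0.18. These genes were picked for likeness on the same arrays, so their changes are a description.

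**Figure D5:**
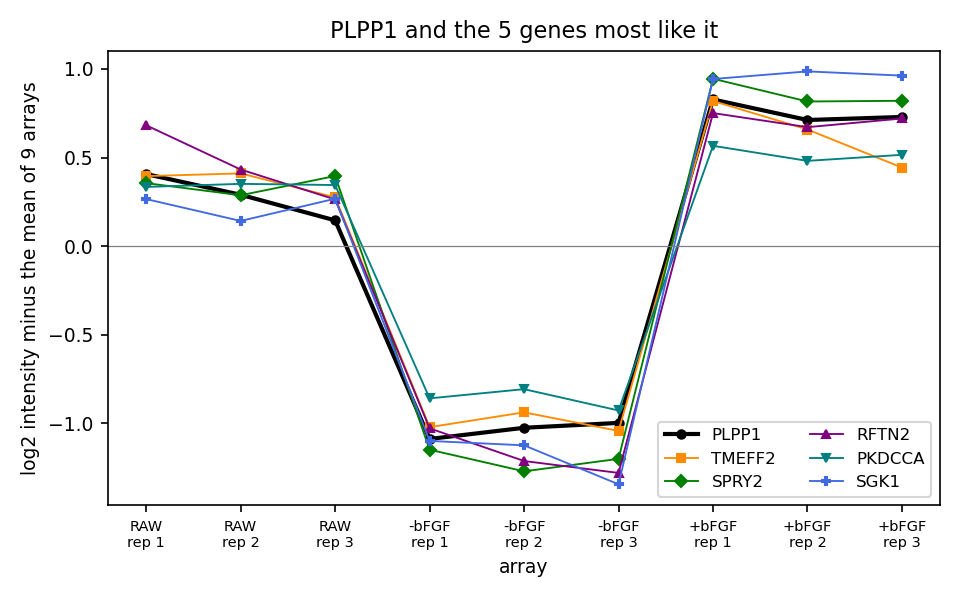
Log2 intensity minus the mean of 9 arrays for the first PLPP1 probe set and the 5 genes most like it, on each array. Lines join the arrays of 1 gene in order of group, and the order of replicates within a group has no meaning. All 6 lines are lowest on the 3 -bFGF arrays.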

How the data were processed

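The authors hybridised RNA from 9 PGC samples to Affymetrix arrays and deposited 1 linear MAS5 intensity per probe set and array (version not given in the sources used here), and their dChip comparisons were not used. Probe sets were named through the platform annotation that was supplied: of 38535 probe sets, 27178 carry 1 symbol, 177 several and 11180 none. Of those with 1 symbol, 26863 have a gene ID that is in the RefSeq table, where 0 symbols differ. The arrays give no coordinates, so none are printed. Intensities were converted to log2 with no offset and fitted in limma 3.58.1 under R 4.3.3, with 1 mean per group and an intensity trend, over 19220 probe sets after 96 array controls were left out. Tests were two-sided. A probe set was at background in a group when all 3 of its arrays lay under the background level. The fit was tested on simulated data. The members and lists were chosen with earlier results of these data known, and AGK, GNAI1 and RHOB had been seen in the study's own lists.

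Named are every member, the called genes of each list (the 4 with the largest changes at most) and the 5 genes most like PLPP1. Uncalled or untested list genes, the neighbours and RB1 were added as values after the data were seen. Alternatives were quantile normalization, a filter at the 75th percentile or none, arrays centred on their 75th percentile, an added offset of 50, the probe sets of a gene averaged, no intensity trend, only the 2 groups compared, the replicate number as a block, an adjusted p under 0.1, the study's criteria (group means that differ by over 50, with a 90% interval of their ratio that stays above 1.2) and each array left out in turn. The number of arrays limits the precision.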

Additional observations from a re-analysis of the deposited data

How the results depend on the processing

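All 429 changes of the member probe sets refitted under other normalizations, with the replicate block or with 1 array left out, 78 of them for PLPP1, moved by less than 1 SD between replicates, and no called change turned its sign. Some of the 429 could not move. Leaving out an array of the group not compared, or adding the replicate number as a block, does not alter a difference of group means here. With 3 arrays in a group, leaving 1 out can shift the group mean by only part of that group's SD. The bound of 1 SD therefore says little about those refits, and no stability is read from it. The count of member probe sets called stayed between 2 and 3 on withdrawal and 2 and 4 on replacement. For the net change, 2 as reported, it was 3 with the stricter filter, which added LPAR6, and 3 under the study's criteria, which added S1PR1. At an adjusted p under 0.1 it was 4, with LPAR6 and S1PR1 both added. The 13 pathway genes called on withdrawal became 6 under the study's criteria, and 8 to 15 with 1 array left out, the lowest without RAW replicate 2 or -bFGF replicate 2. The 8 called on replacement became 5 to 8 with 1 array left out, the lowest without -bFGF replicate 2 or +bFGF replicate 1. The 3 called for the net change became 0 with no filter, with no intensity trend and with only the 2 groups compared, 1 with 75th percentile centring and under the study's criteria, and 0 to 1 with 1 array left out. The causes were not tested. Leaving out an array leaves fewer samples to each fit.

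Samples with the same replicate number correlated by -0.213 to 0.0605 in their deviations from the group means, so no shared effect of the number was seen. Whether equal numbers mark matched cultures is not described. With the replicate number as a block, 1 pathway gene was called for the net change in place of 3, and the other counts stayed within 1.5 times of those reported. Signal over background limits PLPP2, LPAR1 and S1PR1 most.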
